A study of Homo sapiens with 8 samples.

Results

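Sense-intronic genes are non-coding genes annotated inside an intron of another gene, on the same strand as that host gene. RNA sequencing of 8 libraries followed them in SH-SY5Y, an established neuroblastoma cell line of human origin whose labels call it a neuronal progenitor. At 80% confluence the cells were given 0.5 ul of adenovirus, and RNA was taken 48 h later. In 4 libraries (the ERRg group) the virus carried BioID-Flag-ERRg, the biotin ligase BioID fused to Flag-tagged estrogen-related receptor gamma, and in the other 4 (the GFP group) it carried BioID-GFP-NLS, where green fluorescent protein and a nuclear localisation signal replace the receptor. Every library thus came from cells that received a virus and the ligase, and no library of untreated cells was analysed here. Nothing in the labels tells whether the 4 libraries of a group stem from different cultures. The p-values therefore measure only the spread between these libraries, which may be technical. The members were the genes typed sense_intronic in GENCODE release 29 that had at least 20 reads summed over the 8 libraries. Of 894 such genes in the annotation, 873 had their identifier among the 67060 genes of the count table, 146 of these were at 0, and 129 had 1 to 19 reads. That left 598 members. They were chosen by that total over all libraries, not by the difference between the groups. Just inside the threshold lay AC010547.2 with 20 reads, AC019185.2 with 21 and AC027277.2 with 21, and just outside it lay GPC5-IT1 with 19, ARHGEF7-IT1 with 18 and AC079336.2 with 18.

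RNA polymerase copies the whole of a gene, introns included, and splicing then removes the introns, which are usually debranched and broken down in the nucleus. RNA annotated inside an intron can be a transcript with its own start and end, a stable piece of an intron, or a stretch of host RNA that has not been spliced. Many such genes were annotated from cDNA clones, and their names often carry the suffix IT, for intronic transcript. The counts give reads on a member's exons without saying which of these kinds of RNA they came from. The libraries were made from total RNA depleted of ribosomal RNA, so RNA without a poly(A) tail could enter them. In bulk RNA, fewer cells making a transcript and less of it per cell cannot be told apart.

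The annotated ends of 6 members are shown because they show the range among members in the letters that usually mark a cleavage and polyadenylation site. They are 3 of the most abundant members (Z83843.1, GABPB1-IT1 and AC092168.2), 2 with large values against their host (AC110921.1 and AL133330.1) and the member that fell most (AC106820.4). Sequences were read from the GENCODE release 29 transcripts (GRCh38), run 5′ to 3′ and have AATAAA or its variant ATTAAA in capitals.
Z83843.1 (last 60 bases, chrX:74209976-74210035, minus strand): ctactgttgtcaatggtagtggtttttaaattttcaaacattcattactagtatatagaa
GABPB1-IT1 (last 60 bases, chr15:50348936-50348995, minus strand): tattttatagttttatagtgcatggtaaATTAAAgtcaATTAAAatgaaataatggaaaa
AC092168.2 (last 60 bases, chr2:100847161-100847220, plus strand): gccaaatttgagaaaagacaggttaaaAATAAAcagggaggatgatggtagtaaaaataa
AC110921.1 (last 60 bases, chr17:67525363-67525422, plus strand): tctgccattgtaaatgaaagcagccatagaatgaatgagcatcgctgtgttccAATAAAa
AL133330.1 (last 60 bases, chr11:35213948-35214007, plus strand): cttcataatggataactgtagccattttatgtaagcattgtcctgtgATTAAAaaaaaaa
AC106820.4 (last 60 bases, chr16:2482114-2482173, plus strand): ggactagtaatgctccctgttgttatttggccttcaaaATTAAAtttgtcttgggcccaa
The end of Z83843.1, the most abundant member, held neither hexamer, while the ends of AC110921.1 and AL133330.1 held one close to their last base. Over all members, AATAAA was found in the last 40 bases of 213 (35.6%), on the transcript strand. Among lincRNA genes with at least 20 reads the share was 41.5%, among antisense genes 34.5% and among protein-coding genes 60.2%. Members with 1 exon carried it more often (163 of 288, 56.6%) than members with more than 1 exon (50 of 310, 16.1%). A run of 6 A ended the annotated transcript of 37 members (6.19%), against 1.87% of lincRNA, 1.89% of antisense and 1.98% of protein-coding genes.

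The annotated starts of 3 members that fell are shown for their base composition, with CG in capitals.
AL137060.1 (first 60 bases, chr13:50125816-50125875, plus strand): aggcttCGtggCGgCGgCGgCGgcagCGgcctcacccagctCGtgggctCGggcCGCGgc
AC006538.1 (first 60 bases, chr19:2729268-2729327, minus strand): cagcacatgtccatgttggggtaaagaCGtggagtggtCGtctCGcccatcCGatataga
AL359091.5 (first 60 bases, chr9:128431598-128431657, plus strand): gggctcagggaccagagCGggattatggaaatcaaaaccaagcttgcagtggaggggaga
The start of AL137060.1 was 81.7% G or C with 10 CG, and the start of AL359091.5 was 55.0% G or C with 1. Over the first 60 bases, the median GC content was 53.3% among the 17 members that were lower in ERRg and 41.7% among the 308 that were higher, and 6 of the 17 against 17 of the 308 held at least 3 CG. The 133 members not called lay between, with a median of 48.3% and 18 that held at least 3 CG. With an offset for GC content, described below, AL137060.1, AC006538.1 and AL359091.5 were no longer called lower. The nuclear receptor half-site TCAAGGTCA, the letters that ERR proteins are known to bind, was found on either strand in the transcripts of 7 members (1.17%). The share was 1.64% of antisense, 2.56% of lincRNA and 5.99% of protein-coding transcripts, which differ in length (median 573 bases for members and 3629 for coding genes). Of the 6 of these members that were tested, 2 were higher in ERRg and 0 lower, with a median log2 fold change of 0.21.

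Members were short and mostly lay in long introns of long genes. Their exons summed to a median of 577.5 bp (158 to 13454), and 288 (48.2%) had a single exon. A same-strand host that held the whole member in intronic sequence was found for 574, of which 556 had a protein-coding host. Of the other members, 12 overlapped an exon of the same-strand gene that held them, and 12 had no same-strand gene that held the whole member. The hosts were 502 distinct genes with a median span of 111734 bp, and 57 of them held more than 1 member (129 members in all), so members are not independent of each other. The 567 members that could be placed in an intron of one host transcript lay in introns with a median length of 25952 bp, 191 of them (33.7%) in the first intron. The host transcript used was the one with the longest span that held the member, and intron numbers and lengths refer to it. No member lay in ESRRG, the gene of the delivered receptor. Exons of another gene overlapped 15 members on the same strand and 29 on the opposite strand, and the counting of such reads is uncertain. Of the members described below, AC092811.1, AP000866.6 and AP000688.1 had such an overlap on the opposite strand and AC051619.7 on the same strand.

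Depth was uneven between the groups, with 27.7 to 35.5 M reads assigned to genes in GFP and 21.02 to 23.0 M in ERRg libraries. The share of reads that fell outside annotated exons was 46.7% ± 1.31 in ERRg libraries and 20.9% ± 3.58 in GFP libraries (SD, 4 libraries each). ESRRG rose from 34.9 ± 2.34 CPM (counts per M reads of the TMM-scaled library) in GFP to 808 ± 73.2 in ERRg (SD, n = 4 each). Of 8 noradrenergic neuroblastoma markers, 6 were tested and 5 of these were lower in ERRg, while TH and CHGA were listed at 0 in all 8 libraries. For comparison, 50.6% of protein-coding genes tested were lower and 28.96% higher, beside 35.9% and 38.8% of all genes. The summed level of the 8 markers was 590 to 679 CPM in GFP and 350 to 414 in ERRg. Of 4 fibroblast markers, none of them at 0, 3 were lower and 1 higher (summed level 135 to 163 CPM in GFP and 64.4 to 75.8 in ERRg), and the leukocyte, epithelial and endothelial lists each summed to at most 2.24 CPM in any library. The part of these differences in the results below was not tested.

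As a group, the members took a larger share of the reads assigned to genes in ERRg. The share was 0.0765, 0.0540, 0.0643 and 0.0727% in GFP libraries 1 to 4 and 0.168, 0.164, 0.160 and 0.160% in ERRg libraries 1 to 4. Every ERRg library lay above every GFP library, by 0.0960 percentage points on average (exact two-sided permutation test, p = 0.0286, the smallest that 70 arrangements can give). Without the 5 most abundant members the mean share was 0.0594% in GFP and 0.143% in ERRg. Measured against the reads outside annotated exons, the order turned round, with 0.145% ± 0.00241 in ERRg libraries and 0.177% ± 0.0110 in GFP libraries (SD; exact permutation p = 0.0286 over the 4 and 4 libraries). Within GFP, library 2 had both the smallest member share of gene reads and the smallest share of reads outside exons (16.2%), and library 1 had the largest of both (24.2%).

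**Figure D1:**
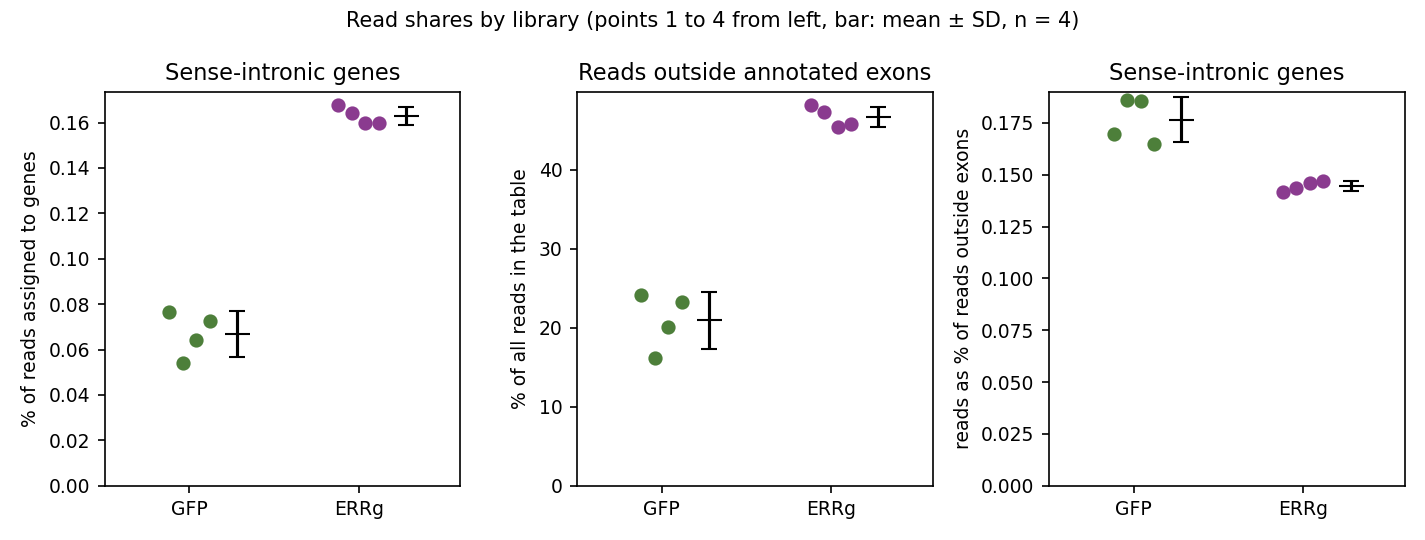
Shares of reads in each of 8 libraries, with the mean ± SD of each group (n = 4) beside the points. Left, reads on sense-intronic genes as a percent of reads assigned to genes, which lie between 0.0540 and 0.0765% in GFP and between 0.160 and 0.168% in ERRg. Middle, reads outside annotated exons as a percent of all reads, and right, reads on sense-intronic genes as a percent of those reads, where the ERRg libraries lie below the GFP libraries.

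Gene by gene, most members that could be tested were higher in ERRg. The low-count filter left 458 of the 598 members, and 140 were left out, none with more than 98 reads in all. Of the 458, 308 were higher and 17 lower in ERRg (edgeR quasi-likelihood test, Benjamini-Hochberg adjusted p under 0.05 over 21993 genes), which is 67.2% and 3.71%. Over all genes tested, 38.8% were higher and 35.9% lower. Members had a median log2 fold change (ERRg over GFP) of 0.93, and all genes one of 0.09. The filter admitted 41 members through their ERRg libraries alone and 0 through GFP alone. Without those 41, a setting added after the data were seen, 269 were higher and 17 lower. With no filter, 328 of the 598 were higher and 22 lower, with a median of 0.84, beside 31.6% and 29.7% of all 28815 genes and a median of 0.13. Of the 140 members that the filter left out, 30 were then higher, 2 lower and 108 not called. In 291 of the 598 members every ERRg library lay above every GFP library, and in 14 every one lay below. Among all genes with at least 20 reads those patterns held for 28.8% and 27.7%.

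The size of the rise depends on the scale. With an offset for GC content, 249 members were higher and 12 lower with a median of 0.67, beside 37.5% and 29.5% of all genes and a median of 0.12. With reads outside annotated exons as the library size, 47 members were higher and 145 lower with a median of -0.24, beside 4.33% and 70.8% of all genes and a median of -1.09. On that scale most members were thus not higher in ERRg, although their median stayed above that of all genes. Of the members described below, Z83843.1 (0.36, edgeR adjusted p = 0.0579), N4BP2L2-IT2 (0.15), AP000866.6 (0.0138), AL133243.3 (0.0179), AC068790.4 (0.0774), AC068790.5 (0.0314), AC027279.1 (0.0163), AC046158.2 (0.38), AC027279.2 (0.38) and AC023908.1 (0.31) were not called on that scale. Also called higher in the main fit, AC006001.2, AC068790.3, AC068790.6, AC068790.7 and AL133243.2 had negative values on that scale. With unadjusted library totals the medians were 1.33 for members and 0.50 for all genes.

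Other non-coding classes from the same fit are given for comparison, as counts with no test of the difference. Of 74 sense-overlapping genes tested, 59.5% were higher and 6.76% lower (median log2 fold change 0.75). Of 2231 antisense genes, 50.2% were higher and 13.3% lower (0.56), and of 1331 lincRNA genes, 40.9% were higher and 22.01% lower (0.34). Genes typed TEC, loci whose status still needs experimental evidence, had 61.5% higher and 10.03% lower (0.81, 369 genes). Of 13433 protein-coding genes, 28.96% were higher and 50.6% lower (-0.30).

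Among the most abundant members, some rose with their host, some rose beyond it, and a few did not rise. Z83843.1 (chrX:74209976-74213660) is a single exon within FTX, a long non-coding RNA gene of the X-inactivation centre. It lies in the last intron of the longest-spanning FTX transcript that holds it, 23.6% of the way along the gene. Its level was 39.2, 23.7, 25.0 and 36.9 CPM in GFP libraries 1 to 4 and 99.3, 93.3, 81.8 and 82.2 CPM in ERRg. The groups did not overlap, and Z83843.1 rose by 1.52 ± 0.14 on the log2 scale (SE; adjusted p = 3.57e-09 in edgeR). FTX itself rose by 1.27, from 148 to 356 CPM. The ratio of Z83843.1 to its host changed by a log2 value of 0.25 ± 0.15 (adjusted p = 0.142) and was not called. N4BP2L2-IT2 rose by 1.30 and its host N4BP2L2 by 0.99, and their ratio was not called either (0.34, adjusted p = 0.0658). Without GFP library 4 that ratio was called, at 0.45 (adjusted p = 0.0260).

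AC092168.2 (chr2:100822661-100847220, 3 exons in the first intron of NPAS2, a clock transcription factor that pairs with BMAL1) stood at 4.99, 4.17, 4.61 and 5.02 CPM in GFP and at 25.1, 26.1, 25.6 and 25.4 CPM in ERRg. The 4 values of each group lay close together and far from the other group, with a log2 fold change of 2.44 ± 0.11 (edgeR adjusted p = 6.44e-13). NPAS2 rose by 0.74, so AC092168.2 rose relative to its host by 1.70 ± 0.17 (adjusted p = 1.91e-11). AP000866.6, in MSANTD2, went from a mean of 9.25 to 21.0 CPM (log2 fold change 1.18) while its host rose by 0.42. AC006001.2, a spliced gene in the protein-coding gene AC027644.4, went from 11.3 to 22.5 CPM (log2 fold change 0.99), and its host was too low to test. Its identifier version in the table differs from GENCODE release 29, so its exons may differ too.

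GABPB1-IT1 and AL049840.4 stood nearly level. GABPB1-IT1 (chr15:50348936-50354861, in the first intron of GABPB1, a subunit of the GA-binding protein transcription factor) was at 17.4, 17.6, 20.3 and 18.8 CPM in GFP and at 19.9, 19.1, 18.9 and 19.1 CPM in ERRg. The groups overlapped, and the log2 fold change of 0.06 ± 0.10 was not called (edgeR adjusted p = 0.595). GABPB1 rose by 0.41, and the ratio to the host was lower by a narrow margin (-0.36, adjusted p = 0.0423). That call was lost without any one of ERRg libraries 1, 2, 3 and 4 or GFP libraries 3 and 4 (adjusted p up to 0.0997), with the replicate block (adjusted p = 0.0731), with limma on the log2 ratio (adjusted p = 0.139) and with no low-count filter (adjusted p = 0.0573). AL049840.4, in KLC1, which codes for a kinesin light chain, had a log2 fold change of 0.03 ± 0.12 (adjusted p = 0.817) with means of 15.3 and 15.7 CPM. With library totals both were called higher, GABPB1-IT1 at 0.46 and AL049840.4 at 0.44.

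**Figure D2:**
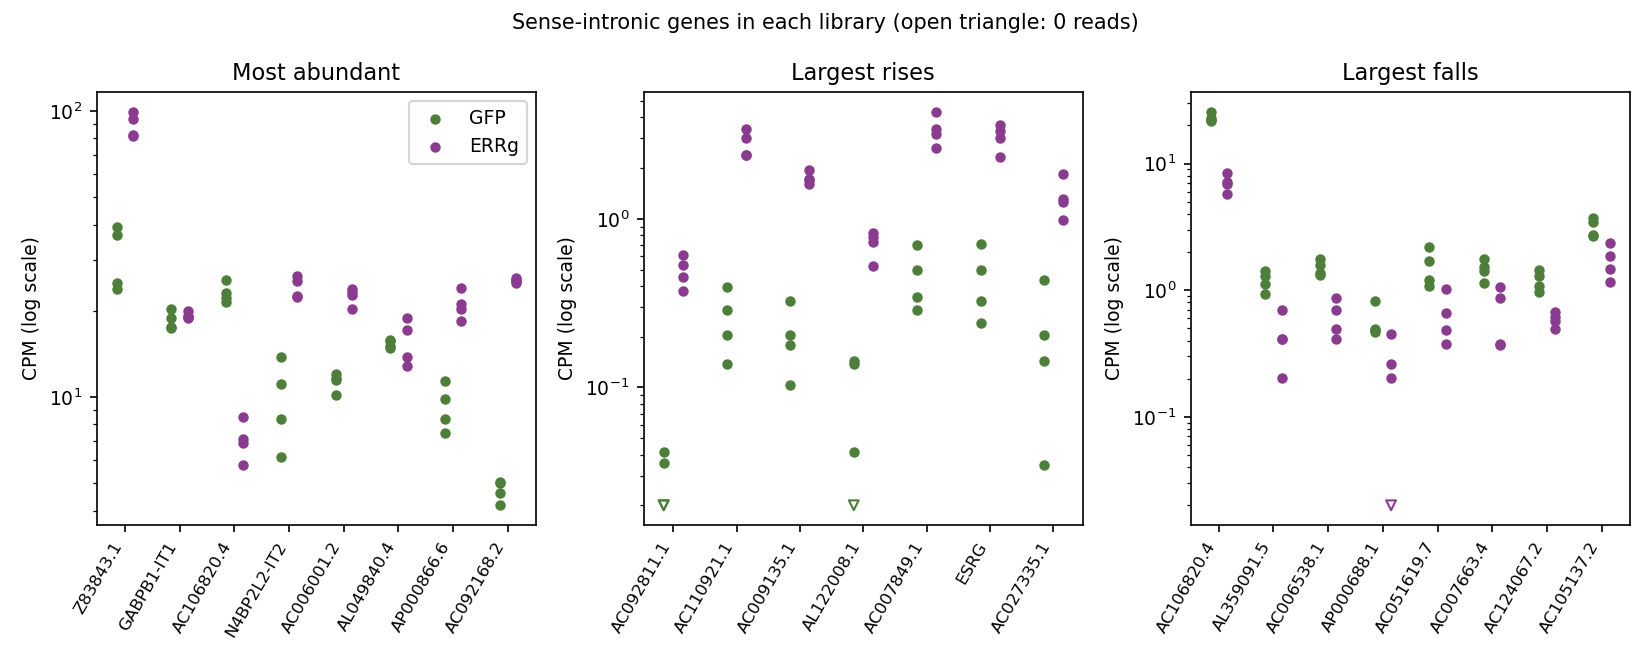
CPM on a log scale in each library for the most abundant members, 7 of the 8 with the largest rises and the 8 with the largest falls among members called with no overlap between groups. Each point is 1 library, and an open triangle marks 0 reads. In the middle and right panels the 2 groups separate for each gene by construction, whereas on the left GABPB1-IT1 and AL049840.4 overlap.

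The largest differences upward were found in genes below 1 CPM in GFP. Of those described here, AC092811.1, AC110921.1, AC009135.1, AC027335.1, AL122008.1 and AC027279.2 passed the low-count filter through their ERRg libraries alone, where they are high. Their values are therefore given as descriptions, with no p. AC092811.1, which has no same-strand host, had no reads in GFP libraries 2 and 3, 0.0357 CPM in GFP library 1 and 0.0412 in GFP library 4, and stood at 0.535, 0.376, 0.451 and 0.610 CPM in ERRg. Its fitted log2 fold change of 4.42 ± 0.62 (SE) rests on 51 reads, 2 of them in GFP. The ratio of its summed reads, scaled to library size, was 26.8 with an exact 95% interval for counting error alone of 7.02 to 227. This interval is no test, as AC092811.1 was picked for its rise and admitted through its ERRg libraries alone. Its identifier version differs from GENCODE release 29, and an exon of AC092811.2 on the opposite strand overlaps AC092811.1. AC110921.1 (in the first intron of PITPNC1, which codes for a phosphatidylinositol transfer protein) was at 0.392, 0.138, 0.288 and 0.206 CPM in GFP and at 2.39, 2.40, 3.41 and 3.01 CPM in ERRg. Its log2 fold change was 3.42 ± 0.29 while PITPNC1 rose by 0.73, from 84.3 to 139 CPM. ESRG, whose symbol resembles that of the receptor gene but names an unrelated long non-coding RNA, rose from 0.443 ± 0.209 to 3.06 ± 0.554 CPM (SD, n = 4 each; log2 fold change 2.78). ESRG has no same-strand host.

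AC007849.1 rose by 2.90 in MECOM, a zinc-finger transcription factor gene that rose by 0.87. Its ratio to MECOM was higher by 2.02 (edgeR adjusted p = 7.21e-08). AC027335.1 had a log2 fold change of 2.72 in SEMA5A, an axon guidance gene that rose by 0.52. AC009135.1 had one of 3.08 in RBFOX1, a neuronal splicing regulator that itself rose by 2.31, from 1.10 to 5.52 CPM, and the log2 ratio of AC009135.1 to RBFOX1 was 0.76, or 1.25 without GFP library 3.

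Falls were fewer and smaller. AC106820.4 (chr16:2476558-2482173, 5616 bases in 1 exon in the first intron of TBC1D24, a vesicle trafficking gene) was at 22.1, 25.7, 23.1 and 21.5 CPM in GFP and at 5.76, 7.14, 8.50 and 6.91 CPM in ERRg. The groups lay far apart, with a log2 fold change of -1.71 ± 0.12 (edgeR adjusted p = 1.86e-10). TBC1D24 fell by 0.88, and AC106820.4 fell relative to it by 0.83 (adjusted p = 3.02e-05). AC007663.4 fell by 1.13 and AL359091.5 by 1.45, but their hosts DGCR6L and CERCAM fell further, by 2.09 and 1.92. The ratio of AC007663.4 to DGCR6L was therefore higher in ERRg (0.90, adjusted p = 0.0124), a call that was lost without ERRg library 4 (0.65, adjusted p = 0.113), and the ratio of AL359091.5 to CERCAM was not called (0.46, adjusted p = 0.239).

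The other 5 of the 8 largest falls lay between -0.88 and -1.29. AC006538.1 fell by 1.29 in AC006538.2, which is listed at 0 in every library. AP000688.1, with no same-strand host although SETD4 on its strand overlaps its span, fell by 1.29. AC051619.7, which overlaps an exon of SHF, fell by 1.28. AC124067.2 fell by 1.02 in LINC01605, a host too low to test, and its identifier version differs from GENCODE release 29. AC105137.2 fell by 0.88 in the first intron of SIN3A, a corepressor scaffold gene that fell by 0.26. The call for AP000688.1 was lost without ERRg library 3 (-0.90, edgeR adjusted p = 0.0612), with library totals (-0.89, adjusted p = 0.0941) and with upper-quartile factors (-0.98, adjusted p = 0.0795). With the GC offset, AC106820.4 (-1.30), AC007663.4 (-1.24) and AC124067.2 (-0.74) stayed called, whereas AL359091.5 (-0.61), AC051619.7 (-0.48), AC006538.1 (-0.25) and AP000688.1 (-0.18) did not, and AC105137.2 stood at 0.04.

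The hosts did not share a common direction. Of 483 distinct hosts tested, 177 were higher, 196 lower and 110 not called, with a median log2 fold change of -0.03, beside 38.8% higher and 35.9% lower among all genes. Among protein-coding genes, the type of most hosts, 28.96% were higher and 50.6% lower, with a median of -0.30. Of the calls among hosts 47.5% were higher, a share that became 64.8% with upper-quartile factors, 70.7% with library totals and 1.18% with reads outside annotated exons as the library size. Among the 428 members tested whose host was tested, 290 were higher, and of these 137 had a host that was also higher, 71 a host not called and 82 a host that was lower. Of the 13 that were lower, 10 had a lower host, 1 a higher host and 2 a host not called. The log2 fold change of the member was larger than that of its host in 389 of the 428. These counts include members that the filter admitted through their ERRg libraries alone. Across these pairs the 2 values correlated with Pearson's r = 0.43 and Spearman's rho = 0.44 (n = 428 pairs from the same 8 libraries, genes not being independent replicates).

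**Figure D3:**
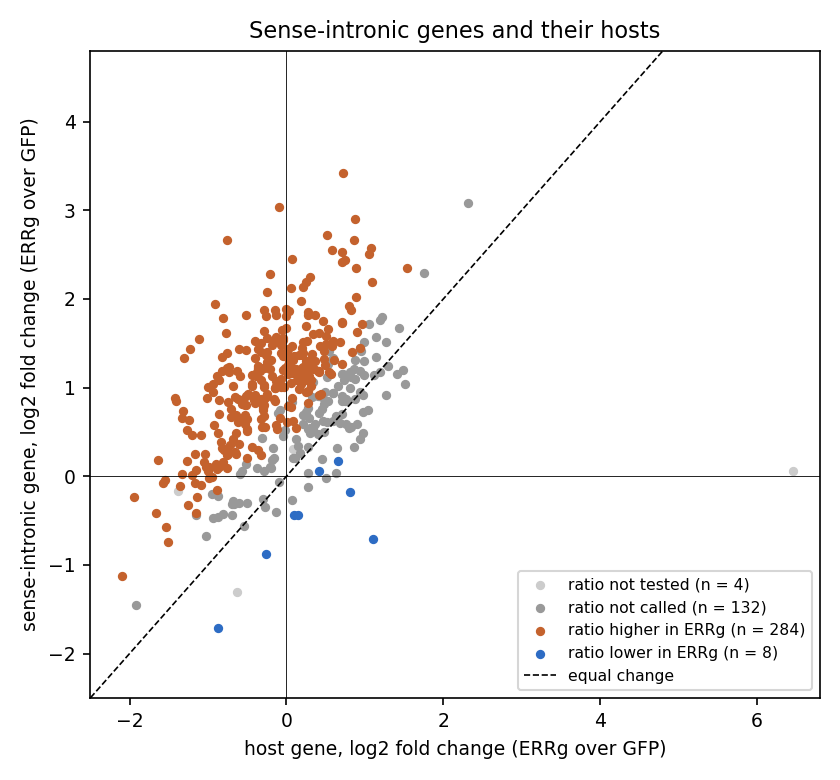
Log2 fold change (ERRg over GFP) of each sense-intronic gene against that of its host, for 428 pairs tested in both. Colour gives the call on the ratio of member to host, and the dashed line marks equal change. Most points (389) lie above the line, and 82 members called higher belong to hosts called lower. Members that the filter admitted through their ERRg libraries alone are included.

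To compare a member directly with its host, reads of the member were modelled with the host's exon reads in the same library as the offset, over every gene nested in an intron of a same-strand gene. This ratio does not depend on how libraries are scaled. Of 424 members in such pairs, 284 were higher and 8 lower relative to the host (edgeR quasi-likelihood test, adjusted over 1719 nested pairs), with a median log2 ratio of 0.99. Over all 1719 nested pairs, members included, 58.8% were higher and 3.78% lower, with a median of 0.88, so the members' 67.0% lay near that background. The 284 include members that the filter admitted through their ERRg libraries alone, such as AC110921.1 and AL122008.1, and such members favour a higher count. Only 54 members were in pairs where both genes kept the GENCODE release 29 identifier version. Of these, 24 were higher and 1 lower, with a median of 0.52. The 58.8% above was taken over pairs of any version, so it is no background for these 54.

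Per kb of exon, members carried fewer reads than their hosts, and the gap was smaller in ERRg. For each member, the reads per kb of its exons were taken as a percent of those of its host. The median over members was 22.5, 16.9, 18.0 and 22.4% in GFP libraries 1 to 4 and 38.4, 40.4, 38.7 and 38.8% in ERRg libraries 1 to 4. The lowest ERRg library lay above the highest GFP library. Taking the mean of each group for each member, 61 members were denser than their host in GFP and 92 in ERRg. The exon length is that of all annotated exons of a gene, and these cells may use fewer. The identifier version of many hosts, CD44 among them, differs from GENCODE release 29, so their counted exons may differ too.

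AL133330.1 had one of the largest rises relative to a host. AL133330.1 (chr11:35212550-35214007, in intron 14 of CD44, the hyaluronan receptor gene) was at 1.75, 0.517, 1.58 and 2.26 CPM in GFP and at 5.27, 6.24, 6.24 and 5.49 CPM in ERRg. CD44 moved the other way, from 944 ± 29.1 to 500.4 ± 14.4 CPM (SD, n = 4 each), and the log2 ratio rose by 2.85 ± 0.24 (edgeR adjusted p = 9.59e-13). The density of AL133330.1 was 2.31% of that of CD44 in GFP and 16.5% in ERRg. AL122008.1 had a log2 fold change of 3.04 in SLC35F3, a solute carrier gene whose change of -0.09 was not called, and a log2 ratio to it of 3.14 ± 0.51. The counts behind AL122008.1 (80 in all) were small.

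The density of AC110921.1 relative to PITPNC1 went from 3.90 to 25.6%. AC023908.1 rose by 2.67 relative to GPR176, an orphan receptor gene that fell by 1.23. The rise of AC023908.1 alone (1.44, edgeR adjusted p = 0.0118) was not called without GFP library 2 (adjusted p = 0.0594) or GFP library 3 (adjusted p = 0.0749), nor with the GC offset (1.00, adjusted p = 0.0525), whereas its ratio kept a value of at least 2.28 without any one library.

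Of the falls relative to a host, the largest was that of AL137060.1 (chr13:50125816-50128463, a 2648-base exon in DLEU1, a long non-coding RNA gene). It was at 1.64, 1.59, 1.40 and 1.28 CPM in GFP and at 0.905, 0.676, 1.11 and 0.935 CPM in ERRg, and the groups did not overlap. The member fell by 0.71 and its host rose by 1.10, a log2 ratio of -1.83 ± 0.28 (edgeR adjusted p = 4.07e-07). It was the single member called lower whose host was called higher. AL137060.1 alone stood at 0.28 with the GC offset, and its fall was not called with library totals (-0.31, adjusted p = 0.261) or upper-quartile factors (-0.41, adjusted p = 0.114). AL133243.1 in BIRC6, AC106820.4 in TBC1D24, AC105137.2 in SIN3A and AL133520.1 in SLC13A3 had log2 ratios of -0.97, -0.83, -0.62 and -0.57. Calls were lost for AL133243.1 without ERRg library 2 or GFP library 1, for AC105137.2 without ERRg library 2, and for AL133520.1 without ERRg library 2 or 4 or GFP library 1 or 3, with ratios of -0.78, -0.48 and -0.39 at the smallest. With limma the ratio of AL133520.1 was not called either (-0.50, adjusted p = 0.163).

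Some hosts held several members, which shared a locus and did not always move alike. CCDC92 held 6 members on the minus strand of chromosome 12, all with 1 exon and all in its first intron. These rose by 1.64 (AC068790.2), 1.00 (AC068790.3), 1.22 (AC068790.4), 1.22 (AC068790.5), 0.87 (AC068790.6) and 1.03 (AC068790.7), while CCDC92 changed by -0.29 (edgeR adjusted p = 0.0616, not called). Relative to CCDC92 each of the 6 was higher, by 1.17 to 1.94. AC068790.6 was not called on its own with the GC offset (0.25, adjusted p = 0.466). BACH1, which codes for a transcriptional repressor of antioxidant genes, rose by 0.71, and its 3 members BACH1-IT3, BACH1-IT1 and AP000240.1 rose by 2.41, 1.74 and 1.73.

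WWOX, an oxidoreductase gene that spans a chromosomal fragile site, held 5 members, and its own change of -0.05 was not called. In its last intron AC046158.2 rose by 1.54 and AC027279.1 by 1.19, and AC027279.2 had a log2 fold change of 1.56. AC009145.1, in the same intron, was too low to test, and AC079414.3, in intron 4, had a log2 fold change of 0.45 (edgeR adjusted p = 0.214). BIRC6, which codes for a large inhibitor of apoptosis, rose by 0.81. Its members AL133243.2 and AL133243.3 rose by 0.99 and 1.17 and their ratios to BIRC6 were not called, although that of AL133243.3 was called without GFP library 1 (0.50) or GFP library 4 (0.44). The third, AL133243.1, had a value of -0.17 (adjusted p = 0.628).

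Features of the members and of their position went with the size of the change, given here as descriptions over quartiles of members. By intron length, the median log2 fold change was 0.61, 0.83, 0.97 and 1.37 from the shortest to the longest introns, and 52 of 107, 69 of 109, 78 of 110 and 91 of 105 members tested were higher. Relative to the host the medians were 0.76, 0.97, 0.96 and 1.29. The median density relative to the host was 15.9% in GFP and 26.5% in ERRg for the shortest introns. For the longest introns it was 24.9% in GFP and 73.3% in ERRg. By host span the medians were 0.59, 0.87, 1.00 and 1.32. By GC content of the member they were 1.09, 1.19, 0.86 and 0.48 from the lowest to the highest quartile, and 13 of the 17 members that were lower lay in the highest. Relative to the host the GC quartiles gave 0.77, 1.13, 1.06 and 0.97, without that decline.

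Other features went with smaller differences. Members in a first intron had a median of 0.96 and those in later introns 0.91. Members with AATAAA near their end had 0.95 and those without 0.93. Single-exon members had 0.86 and spliced members 1.08. Along the host from its start to its end, the quartiles of position gave 0.95, 0.98, 0.99 and 0.80. Of the 22 members tested that have no intronic same-strand host, 14 were higher and 2 lower, with a median of 1.00.

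**Figure D4:**
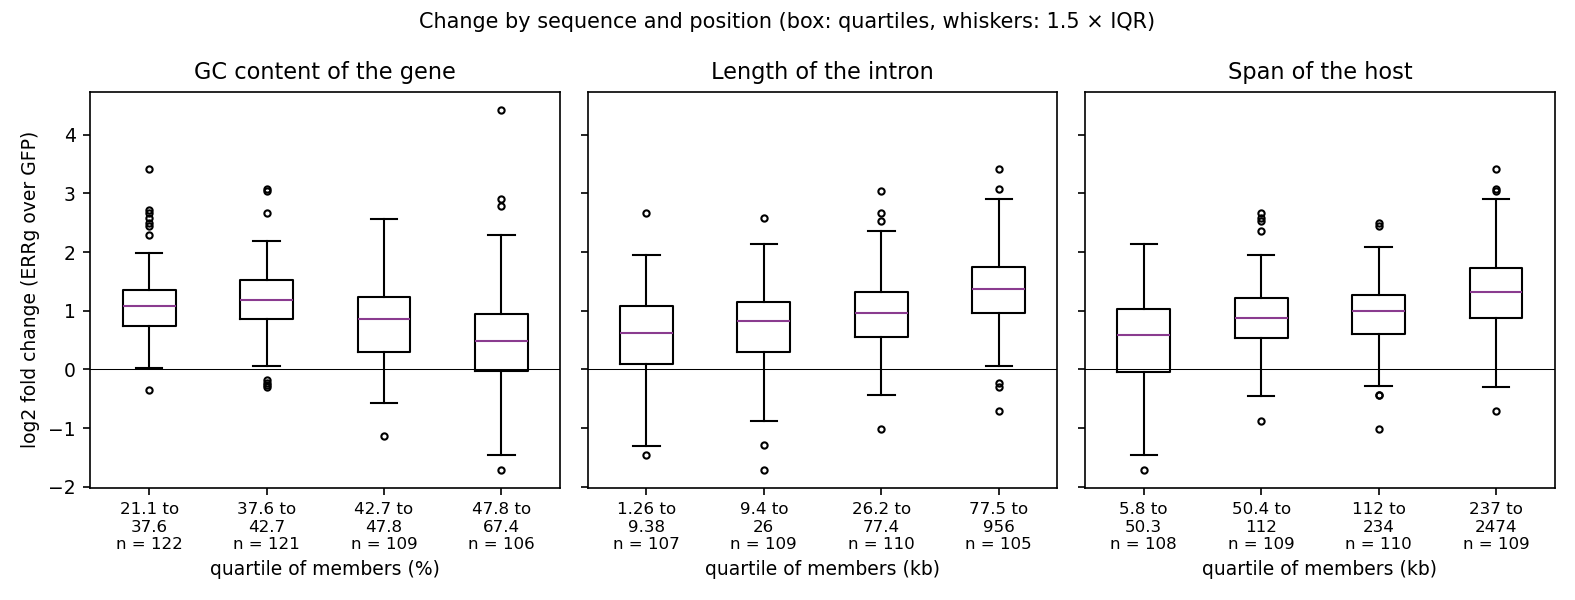
Log2 fold change (ERRg over GFP) of tested members by quartile of their GC content, of the length of the intron they lie in and of the span of the host. Boxes give quartiles with the median, whiskers reach 1.5 times the interquartile range, circles lie beyond, and n counts members tested. The medians climb from 0.61 to 1.37 with intron length and from 0.59 to 1.32 with host span, and are smallest (0.48) in the highest GC quartile.

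Genes that act on intronic RNA were looked at with a list of 51 genes, of which 50 were tested. Of these, 17 were higher and 23 lower in ERRg, with a median log2 fold change of -0.08, beside 38.8% and 35.9% of all genes and a median of 0.09. Among protein-coding genes, a closer background for this list, 28.96% were higher and 50.6% lower, with a median of -0.30. With the GC offset the counts on the list were 10 and 27. First named in each role are the 3 genes with the smallest p, whichever way they moved. The nuclear exosome, which degrades RNA from its 3′ end, and its cofactors had 9 higher and 9 lower of 22. Its core subunits EXOSC5 and EXOSC4 fell by 1.87 and 1.79, and ZC3H3, a cofactor, by 1.54 (edgeR adjusted p = 4.25e-09 or less for these 3). The largest rise in this role was that of DIS3 (0.94). The U1 particle recognises the start of introns and holds back cleavage within them. The 3 of its protein genes that were on the list were lower, SNRPA by 1.55, SNRPC by 1.17 and SNRNP70 by 1.04. Of 5 genes for intron release and debranching, 2 were higher and 2 lower. TFIP11 fell by 0.91, CWF19L1 fell by 0.84 and CWF19L2 rose by 0.88. Of 16 cleavage and polyadenylation genes tested, 5 were higher and 8 lower, among them CPSF4 (-1.13), CLP1 (-1.04) and CPSF7 (-0.84), and CPSF1 was listed at 0 in all libraries. The largest rise there was that of PAPOLA (0.77). Of 4 genes linked to elongation, CDK13 rose by 0.34, SCAF4 fell by 0.50 and SCAF8 had a value of 0.11 that was not called. Whether these genes bear on the members was not tested.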

How the data were processed

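The deposited table gives unnormalised read counts per gene for each of the 8 libraries, and 5 summary lines that name no gene. Among the tools in the submitters' processing notes are STAR 2.7.8a and HTSeq 0.11.3, and the build they name is GRCh38. Per the labels' protocols, libraries were directional. For the counting, neither annotation release nor strand setting is given in the sources used here. The summary lines held 41.8 to 59.3% of the reads and stayed out of library sizes and tests. Gene types, hosts, exons and transcripts came from GENCODE release 29, matched by identifier, and 585 of 598 members had the same identifier version in the table. Many hosts had another version, among them CD44, FTX, NPAS2, PITPNC1, MECOM, TBC1D24, DLEU1, WWOX, CCDC92 and BACH1. A host is the same-strand gene of another type that holds the whole member with no exon overlap, protein-coding and then shortest first.

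All genes were fitted in edgeR 4.0.16 (R 4.3.3; quasi-likelihood, TMM, filterByExpr; two-sided p, adjusted by Benjamini-Hochberg, threshold 0.05) with group as the sole term. Nested pairs were fitted likewise with the log of host counts as offset where the host had at least 20 reads in each library. CPM values use TMM library sizes, fold changes carry the SE of the fit, and 4 libraries per group limit precision. Scripts were tested on simulated data. Alternatives used DESeq2 1.42.0, limma 3.58.1 on log2 ratios (pseudocount 0.5), other scalings, a GC spline offset with 5 degrees of freedom, no filter, and each library left out.

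Named members were those in ESRRG (none), the 8 most abundant, the 8 largest changes each way with no overlap between groups, the 5 largest each way relative to the host, the 3 on either side of the threshold, and members of hosts with 3 or more, of which 4 hosts are described. A member that the rule names is not reported here. The members and gene lists were chosen with earlier results of these data known.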

Additional observations from a re-analysis of the deposited data

Results flagged for a closer look

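In 3 of the named members, 1 library lay far from the other 3 of its group. Dixon's criterion set these apart, and chance gives about 1 in 20 such groups, of 96 groups of 4 libraries checked. AP000688.1 stood at 0.828 CPM in GFP library 3 and at 0.464 to 0.494 in the other GFP libraries. AC068790.3 stood at 2.07 CPM in GFP library 1 and at 1.15 to 1.24 in the others. AP000240.1 stood at 2.71 CPM in ERRg library 3 and at 3.37 to 3.49 in the others.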

How the results depend on the processing

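The counts of members stayed within 1.5 times their main value under most settings, apart from the number of lower members. Leaving out 1 library at a time gave 285 to 308 higher and 16 to 19 lower members, 271 to 299 higher and 3 to 8 lower relative to the host (3 without ERRg library 2 and 5 without ERRg library 4), and a difference in read share of 0.0918 to 0.0993 percentage points. Only members with a host and no same-strand exon overlap, a setting added after the data were seen, gave 294 higher and 15 lower. Members lower in ERRg numbered 7 with library totals and 8 with upper-quartile factors. Hosts were then 270 higher and 112 lower with library totals. With reads outside annotated exons as library size, 47 members were higher and 145 lower, and the difference in share against those reads was -0.0321. The list of RNA decay and cleavage genes had 28 higher with library totals, 26 with upper-quartile factors and 10 with the GC offset. Relative to the host, limma gave 5 lower. Pairs of unchanged identifier version, a smaller set with a lower median ratio, gave 24 higher and 1 lower. What caused these differences between settings was not tested.

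The same-numbered libraries had deviations correlated at 0.09, -0.16, -0.08 and -0.05, so the numbers were not taken as pairs. With the replicate block, 308 members were higher and 15 lower, and 280 higher and 7 lower relative to the host.

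With reads outside annotated exons as library size, signs turned for AC006001.2 (-0.19), AL049840.4 (-1.16), GABPB1-IT1 (-1.14), AC068790.3 (-0.17), AC068790.6 (-0.30), AC068790.7 (-0.15), AC079414.3 (-0.72) and AL133243.2 (-0.20). With the GC offset they turned for AL137060.1 (0.28), AC105137.2 (0.0387), GABPB1-IT1 (-0.30) and AC079414.3 (-0.0930). AL133243.1 turned with library totals (0.23) and upper-quartile factors (0.13). AL049840.4 gave -0.0017 with DESeq2, -0.0019 with its size factors and -0.0147 with no filter, and -0.0855 to 0.105 with 1 library left out. GABPB1-IT1 then ranged from -0.0547 to 0.0532. Members below about 1 CPM rest on few reads, which limits their precision.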
